A study of Caenorhabditis elegans with 4 samples.

Results

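The genes described here encode the proteins of the cytosolic ribosome of *C. elegans*. They were taken as the genes named by a probe set for 1 gene whose symbol is *rpl-* (large subunit) or *rps-* (small subunit) followed by a number, or is one of the old stalk symbols *rpa-0*, *rla-0*, *rla-1* and *rla-2*, with each gene read from its brightest probe set by the mean of the 4 arrays. This gave 75 genes out of 17138, held by 111 of 22548 probe sets, with 45 genes of the large and 30 of the small subunit. No probe set carries an old stalk symbol.

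Gravid adults were dissolved in hypochlorite, and total RNA of their embryos was hybridized to 4 Affymetrix genome arrays for *C. elegans*, 2 for each group. In the sentences below the values of replicates 1 and 2 stand in that order, with the *daf-19(-)* label first. The animals labelled *daf-19(-)* were *daf-19(m86);daf-12(sa204)* double mutants and those labelled *daf-19(+)* were *daf-12(sa204)* single mutants, so that both carry the *daf-12* allele, which suppresses the constitutive dauer formation of *daf-19(m86)* animals. DAF-19 is the RFX transcription factor of ciliated neurons, and the study compared the groups to find the genes it regulates. The parents grew on solid media and the stage of the embryos was not given. A supplementary table of the study heads the second pair of arrays as a biological replicate, and no source describes separate cultures. The p-values therefore speak only of the spread between these arrays.

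All directions are given for the arrays as labelled, and a supplementary table of the study heads the same arrays the other way round. Its columns hold the values of the labelled *daf-19(-)* arrays under the heading of the control, and those of the labelled *daf-19(+)* arrays under the heading of the mutant, in 1998 of 1998 rows compared for each of the 4 arrays. The sources conflict on which naming is right. The methods of the paper name the arrays as labelled. Its results give known target genes of DAF-19 as lower in *daf-19(-)* animals, the direction under the headings of that table. Read by the labels, the same values would put those genes higher in *daf-19(-)*. That result of the paper thus holds only under the headings of the table, and the genotype behind each array was not tested. The brighter probe set for *daf-19* itself read 2493.4 and 2365.2 under the *daf-19(-)* label against 767.5 and 856.8 under *daf-19(+)* (log2 fold change 1.56, adjusted p = 0.00166, limma with Benjamini-Hochberg adjustment). If the arrays are named the other way round, every sign of a difference between the labels turns and no size on the log2 scale changes. Differences between replicates keep their sign and move to the other label.

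A cytosolic ribosome is built from ribosomal RNA and a large set of proteins. The small subunit reads the messenger RNA while the large subunit joins amino acids and lets the new chain out through a tunnel. Ribosomal protein RNAs are among the most abundant in growing cells and are usually regulated as a group, and nearly all of the proteins are essential. The mother supplies the early *C. elegans* embryo with ribosomes, and the ribosomal protein genes are used in all tissues.

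The ribosomal protein genes were read near the top of the arrays' scale in both groups. The values are GCOS signals, a brightness per probe set scaled on each array to a target of 500, and a probe set was tested when it reached a signal of 80 on at least 2 arrays, which 74 of the 75 genes did and 9726 of all 17138 genes. Of the 74, 72 had a mean signal over 8000, and they made up 39.8% of the 181 genes above that level. The median of the 74 genes was 13763 and 12006 on replicates 1 and 2 of the *daf-19(-)* label, and 12707 and 13216 on those of the other. The 2 groups thus overlapped, with the highest and the lowest of these 4 medians both in *daf-19(-)*. The genes held 8.85% and 7.96% of the summed gene signal under the *daf-19(-)* label against 8.17% and 8.65% under *daf-19(+)*.

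**Figure D1:**
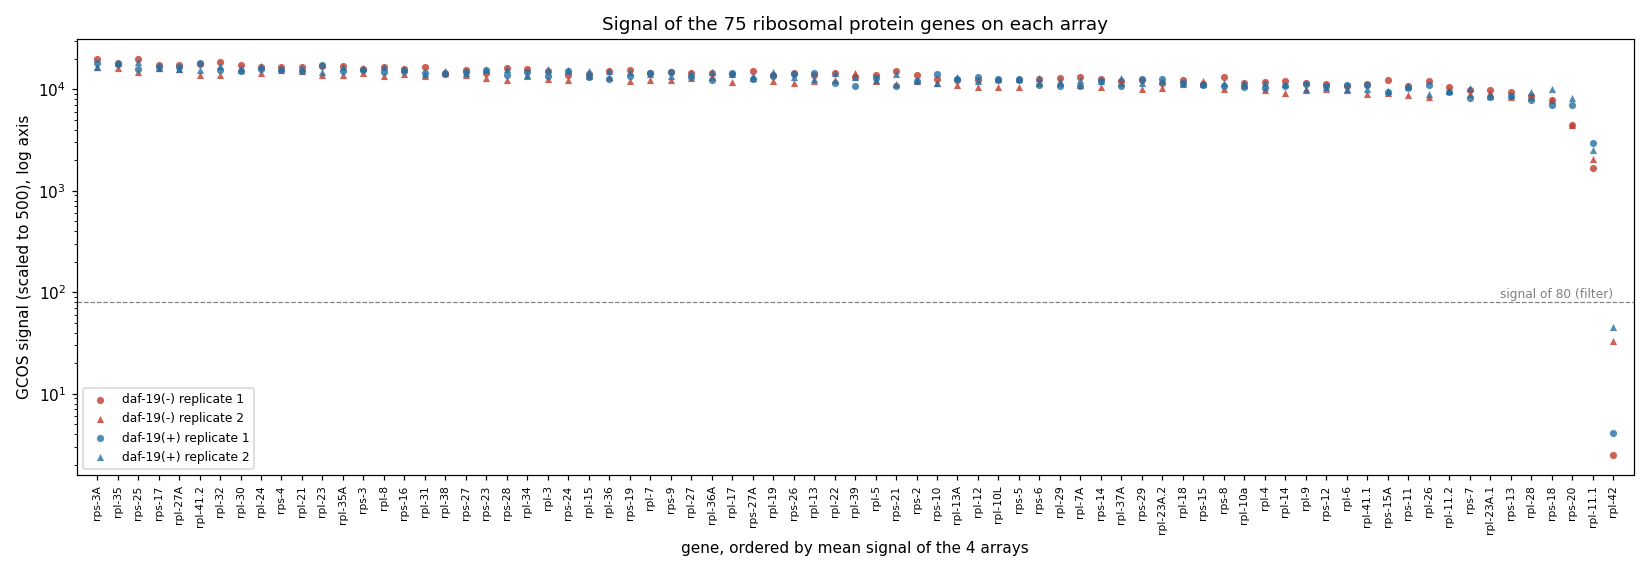
Signal of each of the 75 ribosomal protein genes on each of the 4 arrays, on a log axis, with genes ordered by the mean of the 4 arrays. Red is labelled *daf-19(-)*, blue *daf-19(+)*, circles replicate 1 and triangles replicate 2. 72 genes lie over a mean of 8000, *rps-20* and *rpl-11.1* lie below, and *rpl-42* lies under the filter at 80.

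The 3 brightest were *rps-3A* (F56F3.5), *rpl-35* (ZK652.4), whose protein sits at the exit of the tunnel in yeast and human ribosomes, and *rps-25* (K02B2.5), a protein of the small subunit head. *rps-3A* read 19662 and 16548 under the *daf-19(-)* label against 18066 and 16565 under *daf-19(+)* (log2 fold change 0.06, SE 0.15). *rpl-35* read 18303 and 16146 against 17838 and 18089 (-0.06, SE 0.15), and *rps-25* read 20004 and 14927 against 15917 and 18716 (0.00, SE 0.17). In each of these genes the groups overlapped. The brightest probe sets of any kind reached 22756 to 25623 on the 4 arrays, and whether signals at this end are compressed was not tested. Signals of different probe sets are not on a common scale of RNA amount, so the order of genes is an order of brightness.

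*rpl-42* (C09H10.1) was the gene that did not pass the filter, with 2.5 and 32.8 under the *daf-19(-)* label against 4.1 and 45.3 under *daf-19(+)*. In both groups replicate 2 read higher than replicate 1, and all 4 values lie under the filter, so no level was measured for it.

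None of the 74 ribosomal protein genes passed the test between the labels in limma, fitted without pairing the replicates (0 with Benjamini-Hochberg adjusted p under 0.05 over 13096 probe sets, of which 58, or 0.443%, passed). With a replicate block, which pairs the arrays by replicate number, *rps-20* alone passed, in a fit that called 7.38% of all probe sets. The log2 fold changes of the 74 genes, labelled *daf-19(-)* minus *daf-19(+)*, had a median of -0.03, both over the 44 large subunit genes and over the 30 small subunit genes, beside a median of 0.06 over all 9726 tested genes. They ran from -0.77 to 0.19, with 32 above 0 and 42 below, beside 5395 above and 4331 below of all tested genes. Of the 74, 71 lay within 0.2 of 0, where 34.2% of all tested genes lay. Without *rps-20* and *rpl-11.1* the lowest was -0.22.

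The intervals of the fold changes in signal were narrow for nearly all of the genes, and they bound the RNA only as far as signals near the top of the scale still follow it, which was not tested. The 95% interval of the fold change lay within 1.5-fold in either direction for 72 of 74 genes (97.3%), beside 1558 of all 9726 tested genes (16%), and within 2-fold for 73. The median SE of a log2 fold change was 0.16 for the ribosomal protein genes and 0.25 for all tested genes. An unadjusted p under 0.05 was reached by 2 of the 74 (2.70%), *rps-20* and *rpl-11.1*, beside 18.3% of all probe sets. The arrays average over whole embryos, so that fewer cells of a type and less RNA per cell cannot be told apart.

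**Figure D2:**
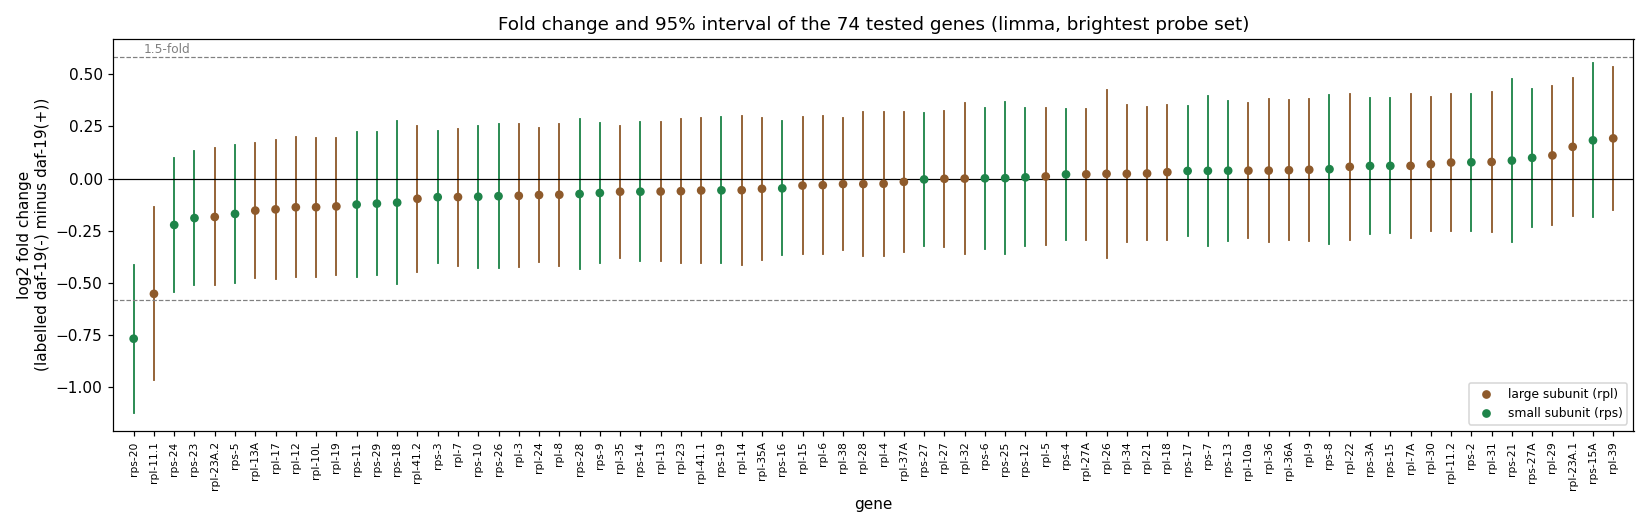
Log2 fold change (labelled *daf-19(-)* minus *daf-19(+)*) of the 74 tested ribosomal protein genes in order of size, with 95% intervals from limma, large subunit in brown and small subunit in green. Dashed lines mark 1.5-fold. The intervals of *rps-20* and *rpl-11.1* pass the lower line, and those of the other 72 stay between the lines.

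Whether the groups overlapped was counted gene by gene. Both arrays labelled *daf-19(-)* lay above both labelled *daf-19(+)* in 2 of the 74 genes (2.70%), *rpl-11.2* and *rpl-23A.1*, beside 30.9% of all tested genes. They lay below in 8 of the 74 (10.8%), *rpl-10L*, *rpl-11.1*, *rpl-13A*, *rpl-23A.2*, *rps-5*, *rps-20*, *rps-23* and *rps-24*, beside 22.9% of all tested genes. These counts use the brightest set of each gene. The other sets of *rpl-10L*, *rpl-13A*, *rps-5* and *rpl-11.2* overlapped between the labels (-0.02, -0.03, -0.02 and -0.03). That of *rps-23* was apart in the same direction (-0.25) and that of *rps-20* in the other. After quantile normalization, which gives the 4 arrays the same distribution of signals, the counts were 13 higher and 12 lower. The shares of all tested genes after it are not given, so these 2 counts have no background beside them. An exact two-sided permutation test of 2 arrays against 2 cannot give a p below 0.33, so separation of a single gene is a description.

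*rps-20* (Y105E8A.16), whose protein lies in the head of the small subunit in yeast and human ribosomes, had the largest fold change of the set. Its brightest probe set, an s_at set, read 4399.8 and 4407.9 under the *daf-19(-)* label against 6941.6 and 8138.1 under *daf-19(+)*, a ratio of mean signals of 0.584. Both arrays of one label were thus below both of the other, by more than the replicates of either differed. The log2 fold change of -0.77 (SE 0.17) did not pass after adjustment (adjusted p = 0.0646, limma). In limma with a replicate block it passed (adjusted p = 0.0016), as 1 of the 74 genes, in a fit that called 7.38% of all probe sets. It also passed without replicate 2 of *daf-19(+)* (-0.65, adjusted p = 0.0451, limma), a fit that called 1585 probe sets, and without any other array it did not. The difference for *rps-20* between the labels was -0.66 in replicate 1 and -0.88 in replicate 2. With each array's median over the ribosomal protein genes taken off, it was -0.77 and -0.74. Between the *daf-19(-)* replicates *rps-20* differed by -0.003, where the median over the ribosomal protein genes was 0.18, so *rps-20* did not share the shift taken off there.

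The other probe set for *rps-20* had a difference of the opposite sign. This dimmer set, an x_at set, read 1002.5 and 1439.6 under the *daf-19(-)* label against 703.7 and 952.8 under *daf-19(+)*, so that it too separated the labels (log2 fold change 0.54, SE 0.24, adjusted p = 0.252, limma). The ratio of the brighter to the dimmer set differed between the labels by -1.31 on the log2 scale, with -1.16 in replicate 1 and -1.47 in replicate 2 (exact permutation p = 0.33, two-sided, the smallest that 4 arrays allow). In Affymetrix naming the ending x_at marks a set with probes that may also bind other sequences, and s_at a set whose probes are shared by several transcripts. The mean of the pair gave -0.11 (adjusted p = 0.746, limma), and which set follows the *rps-20* RNA was not tested.

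Disagreement of this size was an exception among the ribosomal protein genes. Of the 31 genes with several tested probe sets, 66 sets in all, 11 had sets of opposite sign, but 26 had sets within 0.25 of each other on the log2 scale, and the median range was 0.08, beside 0.19 over the 2333 genes of the array with several tested sets. The 2333 genes were not matched for brightness, and the median mean signal was 13053 for the ribosomal protein genes and 545 for all tested genes. Besides *rps-20*, a range of 0.5 or more with opposite signs was found in *rps-18* (Y57G11C.16), another protein of the small subunit head, and the next largest range was 0.29.

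The brighter *rps-18* set read 7776.0 and 7751.9 under the *daf-19(-)* label against 7057.8 and 10029 under *daf-19(+)*, and the groups overlapped (-0.12, SE 0.18). The dimmer set, again an x_at set, read 587.7 and 679.5 against 483.5 and 462.6, with the labels apart and the *daf-19(-)* arrays higher (0.41, SE 0.23, adjusted p = 0.355, limma). In both genes the dimmer x_at set read higher under the *daf-19(-)* label than under the other.

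**Figure D3:**
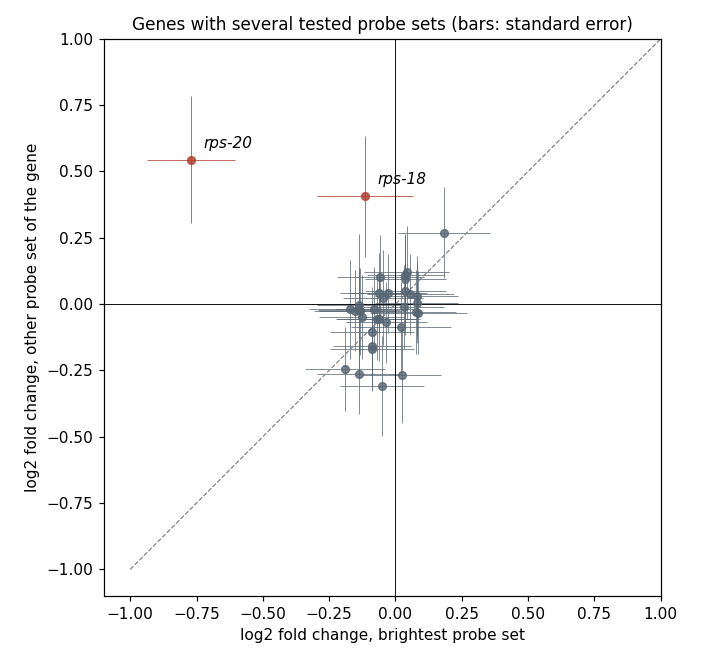
Log2 fold change of the brightest probe set of a gene (x axis) against that of each other tested probe set of the same gene (y axis), with bars for the standard error, for the 31 ribosomal protein genes with several tested sets. *rps-20* (-0.77 and 0.54) and *rps-18* (-0.12 and 0.41), in red, lie far from the dashed line of equal values.

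Ribosomal protein genes that share a number allow a comparison of near copies on the same arrays. *rpl-11.1* (T22F3.4) and *rpl-11.2* (F07D10.1) encode the protein that, with that of *rpl-5*, holds the 5S ribosomal RNA in yeast and human ribosomes. *rpl-11.1* read 1662.5 and 2059.0 under the *daf-19(-)* label against 2952.9 and 2511.6 under *daf-19(+)*, a ratio of 0.681 with the labels apart (log2 fold change -0.55, SE 0.19, adjusted p = 0.179, limma). The brightest *rpl-11.2* set read 10448 and 9752.2 against 9447.0 and 9694.8, also with the labels apart but in the opposite direction and by little (0.08, SE 0.15). The dimmer *rpl-11.2* set read 9334.7 and 8088.9 against 8881.7 and 8843.2, with overlap (-0.03, SE 0.16). *rpl-5* read 13714 and 11958 against 13028 and 12414, with overlap (0.01, SE 0.15).

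Read from the brightest sets, the log2 ratio of *rpl-11.1* to *rpl-11.2* differed between the labels by -0.63, with -0.97 in replicate 1 and -0.29 in replicate 2 (exact permutation p = 0.33, two-sided). *rpl-11.1* was not called under any alternative, and its value ran from -0.71 to -0.40 when single arrays were left out.

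*rpl-23A.1* (F55D10.2) and *rpl-23A.2* (F52B5.6) encode a protein beside the exit of the tunnel, and both separated the labels in opposite directions. *rpl-23A.1* read 9801.0 and 9109.9 under the *daf-19(-)* label against 8460.8 and 8544.0 under *daf-19(+)* (0.15, SE 0.15, adjusted p = 0.619, limma). *rpl-23A.2* read 11565 and 10232 against 12624 and 12112 (-0.18, SE 0.15, adjusted p = 0.537, limma). The log2 ratio of the pair differed by 0.34, the same in both replicates to 2 decimals (exact permutation p = 0.33, two-sided). A shift of a whole array cancels in such a ratio, but neither gene passed the test alone.

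*rpl-41.1* (F54D7.6) and *rpl-41.2* (F54D7.7), which lie next to each other in the RefSeq annotation, had like fold changes. *rpl-41.1* read 11180 and 9070.4 against 10902 and 10073 (-0.06, SE 0.16), and *rpl-41.2* read 17704 and 13944 against 18085 and 15622 (-0.10, SE 0.16). In both genes replicate 1 was above replicate 2 under each label and the labels overlapped. The log2 ratio of this pair differed between the labels by 0.04 (exact permutation p = 0.667, two-sided). Whether near copies share probe signal was not tested.

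The other genes at the ends of the order differed by less. The 3 lowest after *rps-20* and *rpl-11.1* were *rps-24*, *rps-23* and *rpl-23A.2*, and the 5 highest were *rpl-39*, *rps-15A*, *rpl-23A.1*, *rpl-29* and *rps-27A*. *rps-24* (T07A9.11) read 13957 and 12296 under the *daf-19(-)* label against 15055 and 15534 under *daf-19(+)* (-0.22, SE 0.15, adjusted p = 0.437, limma). *rps-23* (F28D1.7), whose protein lies at the decoding centre of the small subunit, read 14394 and 12835 against 15398 and 15616 (-0.19, SE 0.15). In both genes the labels were apart, with replicate 2 of *daf-19(-)* the lowest array.

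*rpl-39* (C26F1.9), which encodes a small protein lining the tunnel, read 13145 and 14351 under the *daf-19(-)* label against 10861 and 13292 under *daf-19(+)* (0.19, SE 0.16). *rps-15A* (F53A3.3) read 12469 and 9224.1 against 9303.9 and 9584.8 (0.18, SE 0.17). On these sets each overlapped between the labels, and in *rps-15A* the difference lay in replicate 1 of *daf-19(-)*, since the other arrays lay close together. The dimmer *rps-15A* set read 6437.7 and 5848.5 against 4592.2 and 5637.0, with the labels apart and *daf-19(-)* higher (0.27, SE 0.17). *rpl-29* (B0513.3) read 12987 and 11619 against 10722 and 12067 (0.11, SE 0.16). *rps-27A* (H06I04.4), whose product is made as a fusion with a ubiquitin-like protein and cut, read 15208 and 12913 against 12708 and 13466 (0.10, SE 0.15). The labels overlapped in both.

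Grouped by place in the ribosome, as known from yeast and human structures, the genes gave medians close to one another. The 10 genes for proteins of the exit tunnel and its rim had a median log2 fold change of -0.03, from -0.18 (*rpl-23A.2*) to 0.19 (*rpl-39*), with 4 above 0. The 14 genes for proteins of the small subunit head had a median of -0.07, from -0.77 (*rps-20*) to 0.10 (*rps-27A*), with 5 above 0. None of the genes in either group was called in limma without the block, and *rps-20* was the only one called with it. The 3 genes at the 5S ribosomal RNA had a median of 0.01.

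Replicates of the ribosomal protein genes differed in their agreement. Closest were *rps-17* (T08B2.10), *rpl-38* (C06B8.8) and *rpl-11.2*, with residual SDs of 0.04, 0.05 and 0.05 on the log2 scale. *rps-17*, of the small subunit head, read 17179 and 16205 against 16398 and 16142 (0.04, SE 0.15), and *rpl-38*, of the tunnel rim, read 14540 and 14403 against 14275 and 15222 (-0.03, SE 0.15). On these sets both had overlapping groups. The dimmer *rps-17* set read 14690 and 14588 against 13051 and 14080, with the labels apart and *daf-19(-)* higher (0.11, SE 0.15).

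Widest apart were *rpl-26* (F28C6.7), *rps-21* (F37C12.11) and *rps-18*, with residual SDs of 0.30, 0.28 and 0.25. *rpl-26*, another protein at the tunnel exit, read 12053 and 8399.6 against 10932 and 8977.5 (0.02, SE 0.19), with replicate 1 above replicate 2 under both labels. *rps-21* read 15047 and 11238 against 10720 and 13997 (0.09, SE 0.18), with the replicates in opposite order under the labels. The median residual SD was 0.13 for the 74 genes and 0.22 for all tested genes. Of the 74, 54 (73.0%) lay under the variance trend for their brightness, beside 61.7% of all tested genes.

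The signals of the ribosomal protein genes shifted together between the *daf-19(-)* replicates, by more than their median differed between the labels. Under *daf-19(-)*, 70 of the 74 genes read higher in replicate 1 than in replicate 2, with a median difference of 0.18 on the log2 scale, beside 50.8% of all tested genes and a median of 0.00. Under *daf-19(+)*, 25 of the 74 read higher in replicate 1, with a median of -0.05, beside 43.7% and -0.06 for all tested genes. The median absolute difference between replicates was 0.19 and 0.12 in the 2 groups, and 0.20 and 0.30 over all tested genes.

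The sign of the difference between the labels was not the same in the 2 replicates. In replicate 1, 57 of the 74 genes were higher in *daf-19(-)*, with a median difference of 0.10, and in replicate 2 only 8 were, with a median of -0.17. The sign was the same in both replicates in 23 of the 74 genes, beside 68.1% of all tested genes. The median log2 fold change of the set was -0.13 without replicate 1 of *daf-19(-)* and 0.08 without its replicate 2.

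**Figure D4:**
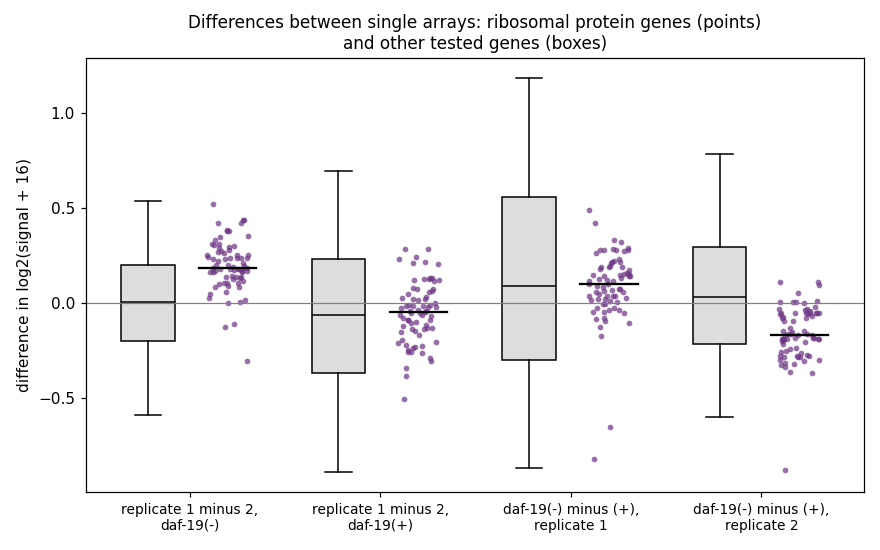
Differences in log2(signal + 16) between single arrays for the 74 tested ribosomal protein genes (points, with a black line at their median) and for the other tested genes (boxes, with the quartiles, the median and whiskers at the 5th and 95th percentiles). The points sit above 0 for replicate 1 minus 2 of *daf-19(-)* (median 0.18), and on opposite sides of 0 for the label difference in replicate 1 (0.10) and replicate 2 (-0.17).

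Other bright genes shared the shift between the *daf-19(-)* arrays. Of the 109 other genes with a mean signal over 8000, 97 (89.0%) read higher in replicate 1 of *daf-19(-)*, with a median difference of 0.18, and their median residual SD was 0.13. Under *daf-19(+)*, 70 of these 109 read higher in replicate 1, with a median of 0.08, where the ribosomal protein genes had -0.05. Their median log2 fold change between the labels was -0.13, and 0 of them were called in limma (7 had an unadjusted p under 0.05, all lower in *daf-19(-)*, beside 18.3% of all probe sets). The 95% interval lay within 1.5-fold for 75 of the 109 (68.8%).

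After quantile normalization, 35 of the 74 ribosomal protein genes read higher in replicate 1 of *daf-19(-)*, with a median of -0.01. The medians of the label difference were then 0.05 in replicate 1 and -0.01 in replicate 2. Of the 74 log2 fold changes between the labels, 44 were then above 0 and 30 below, with a median of 0.04, so the direction of the set turned with the scaling. Quantile normalization gives all arrays the same distribution of signals. The ribosomal protein genes made up 39.8% of the genes with a mean signal over 8000. Of the 109 others, 97 shifted the same way between the *daf-19(-)* arrays. A common shift of the brightest genes is thus largely removed by construction, and its loss does not tell its source. The part of brightness and scaling in the shifts was not tested.

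The stalk proteins, which stand out from the large subunit and bind elongation factors, carry current symbols that the selection did not use. With these and other cytosolic ribosome genes under other symbols, 7 genes were read beside the set, and 0 were called in limma (0 with an unadjusted p under 0.05). *rplp-0* read 13897 and 11709 under the *daf-19(-)* label against 13051 and 14732 under *daf-19(+)* (-0.12, SE 0.16), and *rplp-1* read 13419 and 11221 against 13180 and 12504 (-0.07, SE 0.16), both with overlap. *rplp-2.1* read 17855 and 14371 against 16331 and 14093 (0.08, SE 0.16), with overlap, while *rplp-2.2* read 5171.5 and 4901.7 against 5687.1 and 5658.5, with the *daf-19(-)* arrays lower (-0.17, SE 0.16, adjusted p = 0.589, limma).

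*rpsa-1*, *ubq-2* (a fusion of ubiquitin and a large subunit protein) and *rack-1* (a scaffold on the small subunit) had log2 fold changes of -0.19, 0.13 and -0.00, each with overlapping groups. The median of the 7 genes was -0.07. Replicate 1 of *daf-19(-)* was above replicate 2 in all 7.

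Genes of the rest of the translation machinery were read by lists of their own. Of 58 tested mitochondrial ribosomal protein genes 0 were called in limma (5 had an unadjusted p under 0.05, all lower in *daf-19(-)*). Their median log2 fold change was -0.16, with 45 below 0, beside 4331 of all 9726 tested genes. *mrpl-24* was the farthest from 0, with 386.1 and 357.8 under the *daf-19(-)* label against 705.7 and 550.1 under *daf-19(+)* (-0.72, SE 0.24, adjusted p = 0.173, limma). *mrpl-16* and *mrpl-11* followed with -0.58 and -0.57, and in all 3 the labels were apart with *daf-19(-)* lower. In 21 of the 58 genes the labels were apart in that direction, where 22.9% of all tested genes were, and in 5 in the other, beside 30.9%. The 5 genes with an unadjusted p compare with 18.3% of all probe sets. The median was -0.04 without replicate 1 of *daf-19(+)* and -0.25 without its replicate 2.

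Of 34 tested translation initiation genes, 32 lay below 0, beside 4331 of all 9726 tested genes, and the median was -0.26. The labels were apart with *daf-19(-)* lower in 18 of the 34 (22.9% of all tested genes) and higher in 0 (30.9%). None was called in limma (6 had an unadjusted p under 0.05, beside 18.3% of all probe sets), and with the replicate block 2 were, *ife-3* (-0.62, adjusted p = 0.0405) and *ife-1* (-0.59, adjusted p = 0.0482), both coding for forms of the cap-binding factor eIF4E, in a fit that called 7.38% of all probe sets. *ife-3* read 1247.7 and 1321.0 against 2234.5 and 1752.5. *eif-2beta* followed with -0.58. The median of this list ran from -0.33 to -0.17 when single arrays were left out and was -0.21 after quantile normalization.

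Of 27 tested ribosome biogenesis genes, 25 lay below 0, beside 4331 of all 9726 tested genes. Many genes of this list act in the nucleolus to make and fold the ribosomal RNA. The median of the 27 was -0.18, with -0.12 without replicate 2 of *daf-19(-)*. None was called in limma (3 had an unadjusted p under 0.05, beside 18.3% of all probe sets), and with the block 1 was, *nol-16*, with 1923.8 and 1608.1 against 2597.4 and 3036.2 (-0.67, adjusted p = 0.0184), beside 7.38% of all probe sets. *nol-10* and *rpoa-12* followed with -0.54 and -0.52. The 12 elongation and termination genes had a median of -0.06 (-0.12 to -0.01 when single arrays were left out), with 6 above 0 and 6 below and 0 called (2 had an unadjusted p under 0.05, both lower, beside 18.3% of all probe sets), and the farthest were *iff-1* (-0.46), *eef-1B.1* (-0.40) and *erfa-3* (0.31). No test was made of the difference between the cytosolic ribosomal protein genes and these lists.

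**Figure D5:**
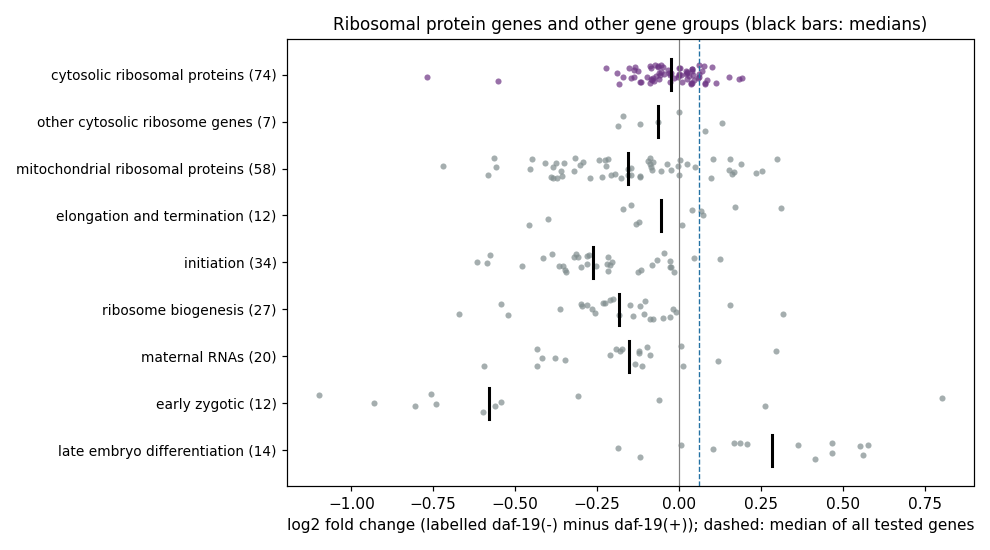
Log2 fold change (labelled *daf-19(-)* minus *daf-19(+)*) of each tested gene of the cytosolic ribosomal proteins and of 8 other lists, with black bars at the medians and a dashed line at the median of all tested genes (0.06). The ribosomal protein genes lie within 0.25 of 0 except *rps-20* and *rpl-11.1*, while the medians of the lists range from -0.58 (early zygotic) to 0.28 (late embryo).

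Lists that mark the age of an embryo were read on the same arrays. The median log2 fold change was -0.15 over 20 maternal genes, -0.58 over 12 early zygotic genes and 0.28 over 14 late differentiation genes, with 0 called in each by limma (2, 8 and 3 had an unadjusted p under 0.05, beside 18.3% of all probe sets, and 7 of the 8 early zygotic genes were lower in *daf-19(-)*). With the replicate block 0 maternal genes, 4 early zygotic genes (3 lower and 1 higher) and 1 late gene (higher) were called, beside 7.38% of all probe sets. The summed signal of the early zygotic list of 15 genes was 6637 and 6633 under the *daf-19(-)* label against 10225 and 8744 under *daf-19(+)*. That of the late list of 15 genes was 53424 and 47513 against 41660 and 49737, and that of the 21 maternal genes 39396 and 35202 against 46848 and 37037.

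Replicate 1 of *daf-19(+)* was thus the highest array for the early lists and the lowest for the late list, and without it the maternal, early zygotic and late medians were 0.07, -0.49 and 0.05. Without replicate 2 of *daf-19(+)* they were -0.41, -0.92 and 0.69. The median of the ribosomal protein genes moved less in either case than when either *daf-19(-)* array was left out. Of the genes that mark adult mothers or sperm, 0 of 5 vitellogenin and 2 of 23 major sperm protein genes reached the filter on all 4 arrays, where 20 of 21 maternal and 13 of 15 late embryonic genes did. The part of embryo age in any difference was not tested.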

How the data were processed

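The authors scanned 4 arrays, 2 for each group, and processed each with GCOS, whose version is not given in the sources used here. Scaling set each array to a target of 500, and nothing was done between arrays. The deposited signals are intensity values on a linear scale. 77 of 22625 probe sets were controls and were left out. The platform annotation, with current symbols from RefSeq, named 1 gene for 20766 of the other 22548. Of the 111 probe sets of the ribosomal protein genes, 55 end in s_at, 20 in x_at and 36 in neither. RefSeq lists 78 such genes, of which *rpl-18A*, *rpl-37.1* and *rpl-37.2* had no probe set for 1 gene.

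The 13096 probe sets that reached a signal of 80 on at least 2 arrays were tested as log2(signal + 16) with limma 3.58.1 in R 4.3.3 (lmFit, eBayes with a variance trend, two-sided). P-values were adjusted by Benjamini-Hochberg over all of them, and 9452 probe sets were too dim. The methods name no such test for the arrays. Intervals are at 95%, and the number of arrays limits the precision. The script was tested on simulated data.

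Groups followed the deposited labels. Replicate numbers pair the arrays, since the study describes separate experiments and its supplementary table of the arrays has a fold column for each. Replicate differences correlated at 0.12 between the groups over 13096 probe sets, and a fit blocked by replicate is given where it changed a call.

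Alternatives were quantile normalization, offsets of 1 and 64, no filter, a floor of 200, no variance trend, the block, the mean of a gene's probe sets, probe sets not shared between transcripts, and each array left out. Members and lists were chosen with earlier results of these data known. Genes named are the numbered pairs, the 5 highest and lowest fold changes, those called, the 3 brightest and dimmest, the 3 largest and smallest residual SDs, those not passing the filter, those whose probe sets disagree by 0.5 or more, and the 3 farthest from 0 of each other list. The stalk list under current symbols, the grouping by place in the ribosome and the alternatives for other lists were added after the data were seen. The listed *ubl-1* is *rps-27A*. Sequences were not used here.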

Additional observations from a re-analysis of the deposited data

How the results depend on the processing

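The count of 0 called ribosomal protein genes became 1 (*rps-20*) with the replicate block, and 0 to 1 when single arrays were left out, the 1 being *rps-20* without replicate 2 of *daf-19(+)*. The other alternatives called 0. The block changed no other call among these genes. The median log2 fold change of the set, -0.03, was -0.1316 to 0.0777 when single arrays were left out. The count of genes with all *daf-19(-)* arrays higher, 2, was 13 after quantile normalization and 1 over the 34 genes left when shared probe sets were dropped. The count with all of them lower, 8, was 12 after quantile normalization, 5 with the mean of a gene's probe sets and 4 without shared probe sets, where fewer genes were left. The shares of all tested genes under these alternatives are not given. The median absolute difference between the *daf-19(-)* replicates, 0.19, was 0.0675 after quantile normalization. That method largely removes a common shift of the brightest genes by construction. The last 3 quantities were not computed with an array left out. Among the genes named, 260 values under 13 alternatives were computed, of which 23 changed sign and 16 moved by more than 1 SE. Apart from *rps-20*, the lowest adjusted p under any alternative was 0.0524 (*rpl-11.1* without replicate 2 of *daf-19(+)*, limma). The adjusted p of *rps-20* was 0.253 with no variance trend and 0.281 with no filter. Over all probe sets, 58 calls became 41 after quantile normalization, 13 with no filter, 28 with no variance trend and 966 with the block, and 20 to 1585 when single arrays were left out. With 2 arrays a group, the 95% interval reached a median of 0.34 on the log2 scale to either side of the estimate for these genes and 0.53 for all tested genes, and smaller differences in single genes were not resolved.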

Other observations

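3 probe sets that the annotation gives to several genes hold ribosomal protein genes and stood outside the set. The set shared by *rpl-37.1* and *rpl-37.2* read 15666 and 11931 under the *daf-19(-)* label against 12739 and 15477 under *daf-19(+)* (log2 fold change -0.04, SE 0.17). The set shared by *rpl-8* and B0250.3 had 0.03 (SE 0.16), and that shared by *rpl-7A* and Y73B3A.18 had 0.04 (SE 0.15).

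Among the genes tested, 3 pairs of neighbours in the RefSeq annotation were both ribosomal protein genes. *rps-10* and *rpl-24* had log2 fold changes of -0.09 and -0.08, *rpl-41.1* and *rpl-41.2* had -0.06 and -0.10, and *rps-14* and *rpl-36* had -0.06 and 0.04.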
